A study of Mus musculus with 4 samples.

Results

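The 10 genes examined here, Klra4, Klra7, Klra8, Klrb1c, Klrc1, Klrd1, Klre1, Klrg1, Klrk1 and Ncr1, encode receptors by which natural killer (NK) cells and some T cells read the surface of other cells. They were taken by symbol from the 31055 features of the deposited table, and all 10 symbols had 1 row each. Droplet-based 3′ single-cell RNA-seq had been carried out on total viable cells, sorted as DAPI-negative, from dissociated lung tumors of 4 female mice. All 4 carried KrasLSL-G12D, an oncogenic allele that Cre activates, both copies of Lkb1 as the allele XTR that Cre traps, and the Cre reporter Rosa26LSL-tdTomato. The 2 Restored mice had FLPo-ERT2 on the other Rosa26 copy, and the 2 Non-Restored mice lacked it. Lenti-Cre had been delivered to the airways 16 weeks before, and all 4 mice received tamoxifen in 4 mg doses for 2 weeks, which removes the Lkb1 trap only where FLPo-ERT2 is present. The study's methods give the age at tumor initiation only as one range for all mice. The Cre-dependent changes are limited to cells that Lenti-Cre reached, while FLPo-ERT2 can act in other cells, immune cells included.

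All mice were pooled in 1 deposited matrix with 20351 cells and 58624795 unique molecular identifiers (UMIs, each a counted RNA molecule), from which 19488 cells with a median of 1949.5 UMIs were kept. No file used here lists which cell came from which mouse. The matrix therefore counts as 1 sample, Restored and Non-Restored mice are not compared, and no p-value is given. Levels are given as CPM, the UMIs of a gene relative to all UMIs of a cell type on a common scale, and ranges in parentheses are exact 95% intervals of the counting error, without the variation among mice. Barcodes shared between libraries were not analysed here. The study states a mixed C57BL/6J and 129 background, and the Ly49 genes that a mouse carries differ between these strains, so a difference between cells and a difference between mice cannot be told apart.

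Most of these receptors belong to the killer-lectin family, whose genes lie together in the NK gene complex. Klra genes encode the Ly49 receptors, which in the mouse take the part that KIR receptors have in humans: some bind MHC class I molecules and inhibit the cell, others pair with an adaptor such as DAP12 and activate it. Each NK cell is known to express only some of the Ly49 genes, so that neighboring cells carry different sets. Klrd1 (CD94) pairs with Klrc1 (NKG2A) as an inhibitory receptor for the nonclassical MHC molecule Qa-1, Klrk1 (NKG2D) binds stress-induced ligands, and Ncr1 (NKp46), an immunoglobulin-like receptor outside the lectin family, marks NK cells and some other innate lymphoid cells.

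In the GENCODE vM21 annotation of mm10, 9 of the 10 genes were on chromosome 6. Without Klrg1, which lay apart at chr6:122270596-122282882 on the minus strand, the other 8 filled a stretch of 1.45 Mb between positions 128778485 and 130233322. The Klra genes ran in the order Klra4, Klra8 and Klra7 within 0.190 Mb, all on the minus strand, and Ncr1 was on chromosome 7 at chr7:4337724-4345164 on the plus strand. RefSeq promoter windows on GRCm38.p6 (250 bases before to 50 bases after the RefSeq start of the gene) were matched for 8 of the 10 genes, all but Klrd1 and Klrg1. The windows of Klrb1c (chr6:128788592-128788891) and Klre1 (chr6:129577963-129578262) lay inside the GENCODE genes and not at their starts. The 250 bases before the start are shown for the Klra genes, which resemble each other in sequence while differing in level, and for Ncr1, a gene of another family whose UMIs were likewise mostly in NK cells. They are written 5′ to 3′ on the strand of the gene, with the 6 letters of the RUNX motif, TGTGGT or its reverse complement ACCACA, in capitals.
Klra4 (chr6:130067272-130067521, minus strand): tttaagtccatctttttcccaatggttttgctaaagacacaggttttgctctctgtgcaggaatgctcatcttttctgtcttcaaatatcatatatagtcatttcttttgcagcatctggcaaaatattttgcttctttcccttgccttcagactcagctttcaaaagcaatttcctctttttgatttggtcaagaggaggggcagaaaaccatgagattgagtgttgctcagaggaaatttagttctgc
Klra7 (chr6:130233323-130233572, minus strand): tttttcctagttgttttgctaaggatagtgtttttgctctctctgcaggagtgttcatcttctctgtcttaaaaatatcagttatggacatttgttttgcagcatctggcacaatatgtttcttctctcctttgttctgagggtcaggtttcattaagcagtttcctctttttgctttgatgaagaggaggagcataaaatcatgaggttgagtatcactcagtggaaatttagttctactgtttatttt
Klra8 (chr6:130129899-130130148, minus strand): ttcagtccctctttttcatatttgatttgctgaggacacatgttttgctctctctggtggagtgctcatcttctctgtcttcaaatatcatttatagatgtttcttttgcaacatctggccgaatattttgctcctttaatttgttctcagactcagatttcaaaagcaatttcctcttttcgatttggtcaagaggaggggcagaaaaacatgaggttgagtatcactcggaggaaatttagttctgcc
Ncr1 (chr7:4337474-4337723, plus strand): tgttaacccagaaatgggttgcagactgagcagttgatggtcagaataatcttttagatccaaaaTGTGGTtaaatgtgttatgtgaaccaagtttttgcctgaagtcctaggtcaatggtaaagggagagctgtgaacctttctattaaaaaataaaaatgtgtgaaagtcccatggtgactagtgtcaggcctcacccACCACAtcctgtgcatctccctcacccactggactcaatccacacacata

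Over the whole 300-base windows, the Klra4 and Klra8 promoters were identical at 86.0% of aligned positions. The corresponding identity was 73.7% for Klra4 with Klra7 and 74.3% for Klra7 with Klra8. The RUNX letters were found on either strand in 5 of the 8 windows (Klrb1c, Klrc1, Klre1, Klrk1 and Ncr1), against 16.8% of 32851 promoter windows of that length, and in none of the Klra windows. Ncr1 had 2 matches, which began 185 and 50 bases before the start. The T-box letters TCACAC, or GTGTGA on the other strand, were in the windows of Klre1 and Ncr1 and in 14.5% of all windows; none of these letters overlapped those of the RUNX motif. A match describes the letters and is not evidence of binding.

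Cells were assigned to types by gates on 6 marker genes a lineage, none of which was one of the 10 receptor genes, and a type name below stands for the cells that passed its gate. The NK gate (at least 2 of Gzma, Prf1, Eomes, Txk, Il2rb and Nkg7, with no UMI of any T cell marker or of Cd4, Cd8a or Cd8b1) held 584 cells, or 2.997% of the cells kept, with a median of 1162.5 UMIs. A set of 7 NK genes that the gate did not use, among them Tyrobp, Fcer1g and Xcl1, summed to 6519 CPM there and to 992 CPM in the 107 effector or memory CD8 T cells (CD8 T cells with more of Ccl5, Nkg7, Gzmk, Cxcr6, Id2 and Ccl4 than of a naive-like list), while 7 T cell genes outside the gate summed to 520 CPM and 1883 CPM. Most of the 6519 CPM came from Tyrobp (2975 CPM) and Fcer1g (2384 CPM), which were at 301 and 285 CPM in the CD8 T cells. Leaving out the 76 NK cells with UMIs of at least 2 of those T cell genes moved the sum of the 10 receptor genes in NK cells from 4405 (4257 to 4557) to 4519 CPM. A further 154 cells had NK markers together with 1 T cell marker or a coreceptor and were kept apart as ambiguous; their sum was 680.5 CPM.

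Summed over the 10 genes, NK cells stood alone among the 21 types of at least 50 cells. Effector or memory CD8 T cells followed at 442 CPM (363 to 532), 9.97-fold lower than NK cells, and then gamma-delta T cells at 309, regulatory T cells at 258, naive-like CD8 T cells at 249.3 and ILC2-gated cells at 210 CPM. From effector or memory CD8 T cells down to ILC2-gated cells the interval of each type overlapped that of the next. The first of these was separate from regulatory T cells (204 to 321) and naive-like CD8 T cells (215 to 287). It was also separate from ILC2-gated cells (168 to 260). At the other end were B cells at 5.50, epithelial cells at 2.91, stromal cells at 2.22 and alveolar macrophages at 1.28 CPM. NK cells held 56.7% of all UMIs of these genes among the cells kept. For single genes this share had no clear break between Klrb1c (69.6% to 88.1%) and Klrc1 (46.8% to 70.7%), whose intervals overlapped. The interval of Klrc1 was separate from that of Klrk1 (39.5% to 45.2%). That of Klrd1 (36.4% to 41.0%) was separate from that of Klrg1 (12.1% to 18.6%). The share was 88.5% for Klra4, 85.8% for Ncr1, 85.0% for Klre1, 84.5% for Klra7, 83.3% for Klra8 and 80.0% for Klrb1c. Further down, it was 59.2% for Klrc1, 42.3% for Klrk1, 38.7% for Klrd1 and 15.1% for Klrg1, and T cells held 50.7% of the Klrg1 UMIs.

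**Figure D1:**
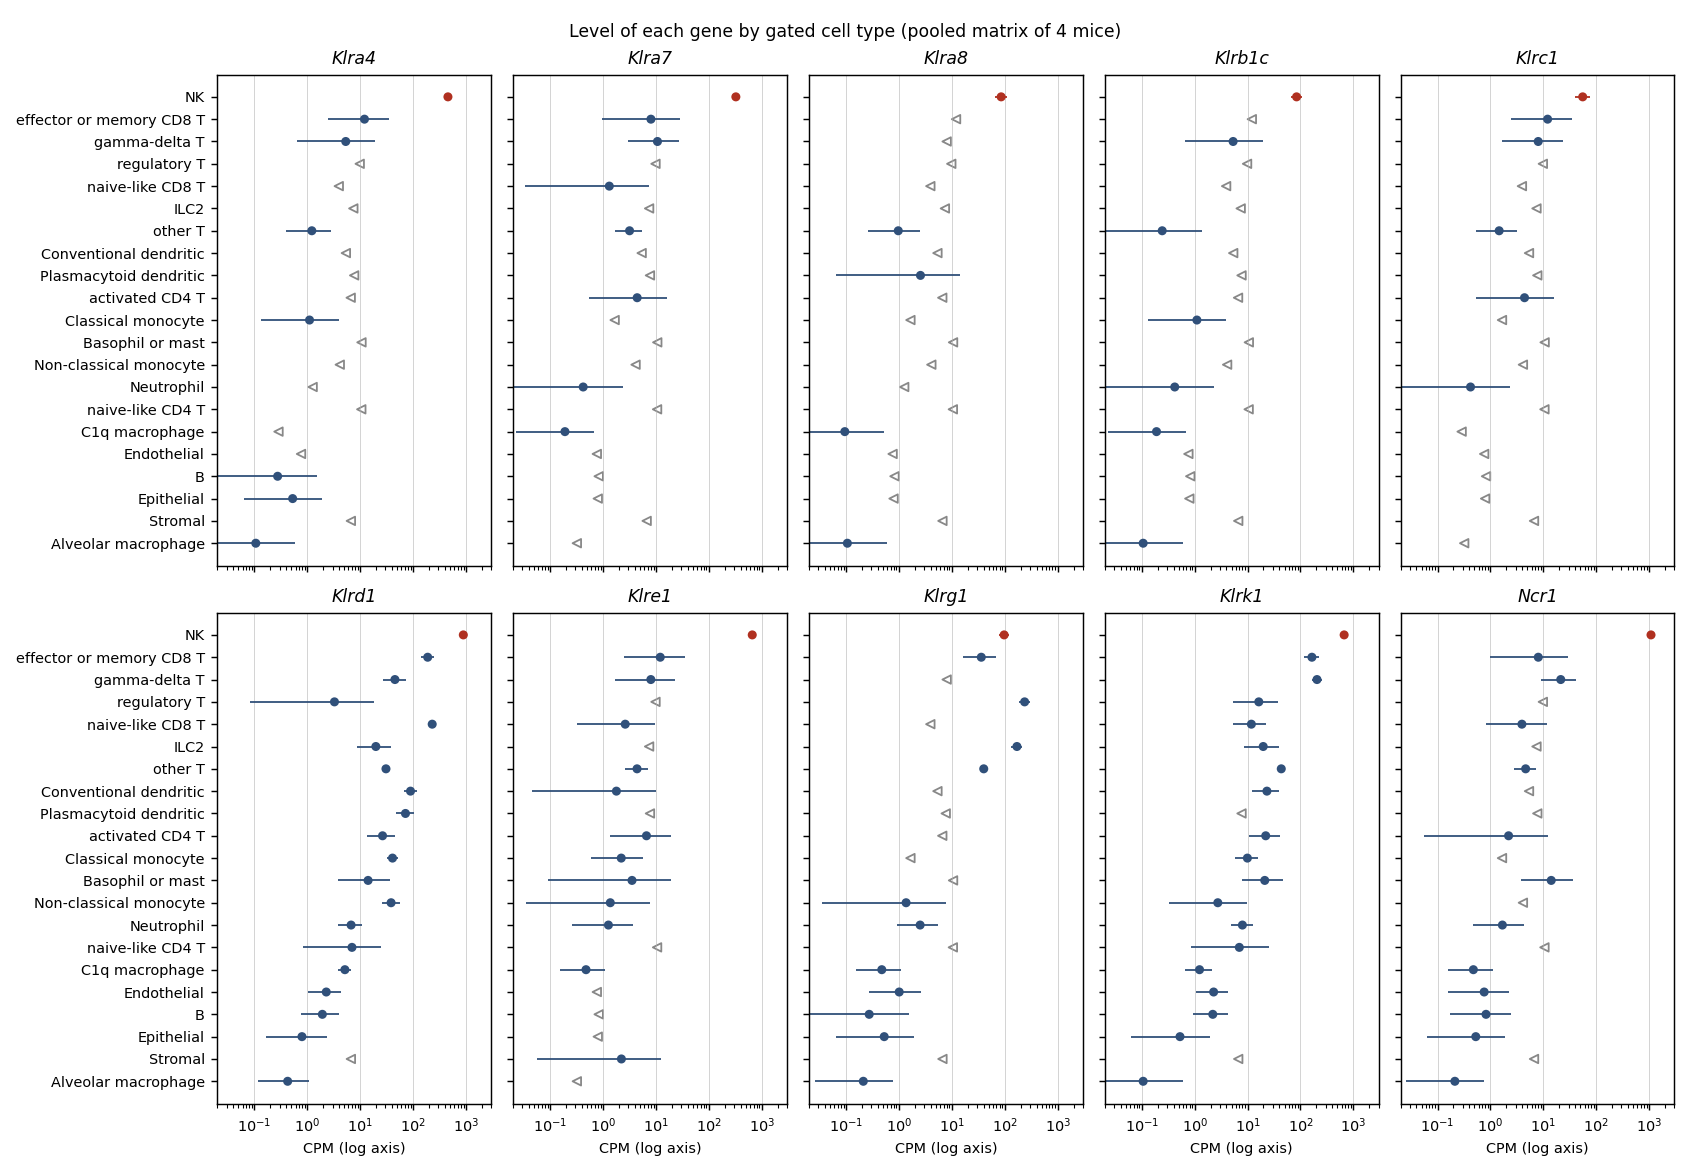
Each panel plots the level of a gene in CPM (log axis) in the 21 gated cell types, ordered from top to bottom by the sum of the 10 genes. Filled points are values with exact 95% Poisson intervals (cut at 0.02 CPM), open triangles mark the level that 3 UMIs would give where none was counted, and NK cells are in red. NK cells are the highest type in 9 panels and the third in that of Klrg1, where regulatory T cells (238 CPM) and ILC2-gated cells (171 CPM) are higher.

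Among the Ly49 genes, Klra4 (Ly49D, an activating receptor that signals through DAP12) was at 455 CPM (409 to 506, 345 UMIs) in NK cells. The next types, effector or memory CD8 T cells and gamma-delta T cells, had 3 and 2 UMIs. Klra7 (Ly49G, an inhibitory receptor for MHC class I) was at 323 CPM (284 to 367) in NK cells, and gamma-delta T cells came second with 4 UMIs at 10.7 CPM (2.91 to 27.3). Klra8 (Ly49H, the activating receptor known for recognition of a mouse cytomegalovirus protein) was at 85.8 CPM (66.2 to 109) in NK cells, and among the other 20 types only plasmacytoid dendritic cells, other T cells, alveolar macrophages and C1q macrophages had any, from 1 to 4 UMIs each. For all 3 Ly49 genes the NK interval was separate from that of every other type, while the types below NK overlapped each of their neighbors in order.

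The activating receptor gene Ncr1 reached 1084 CPM (1011 to 1160, 821 UMIs) in NK cells. Gamma-delta T cells had 21.3 CPM (9.21 to 42.04), basophils or mast cells 14.1 CPM from 4 UMIs, and effector or memory CD8 T cells 8.03 CPM from 2 UMIs. These types did not differ from their neighbors in order beyond counting error. Klre1, whose product forms dimers with the KLRI receptors, was at 660 CPM (603 to 720) in NK cells. Klrb1c, which encodes the NK1.1 antigen, was at 84.5 CPM (65.1 to 108) in NK cells, and the second type, gamma-delta T cells, had 2 UMIs. No type other than NK cells exceeded 12.04 CPM of either gene.

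Klrd1 and Klrk1 had broader patterns. Klrd1, at 890 CPM (824 to 959) in NK cells, was also measured in naive-like CD8 T cells at 230 CPM (197 to 266) and in effector or memory CD8 T cells at 189 CPM (139 to 251), which overlapped. Conventional dendritic cells at 89.3 CPM (66.3 to 118) and plasmacytoid dendritic cells at 71.7 CPM (47.7 to 104) came next. Klrc1, whose product joins that of Klrd1 in the inhibitory receptor, was at 55.4 CPM (40.0 to 74.9) in NK cells, whereas naive-like CD8 T cells had no UMI of Klrc1, a limit of 3.94 CPM, and effector or memory CD8 T cells had 3. Klrk1 was at 669 CPM (612 to 730) in NK cells, at 205 CPM (162 to 257) in gamma-delta T cells and at 165 CPM (118 to 223) in effector or memory CD8 T cells, and naive-like CD8 T cells had 11.8 CPM. The order of the T cell types thus differed between Klrd1 and Klrk1: naive-like CD8 T cells had 175 UMIs of Klrd1 and 9 of Klrk1, and gamma-delta T cells 17 and 77.

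Klrg1, an inhibitory receptor for cadherins that is known from mature NK cells, effector T cells, regulatory T cells and ILC2, was the only one of the 10 genes whose highest type was not the NK cells. Regulatory T cells reached 238 CPM (187 to 300), with a UMI in 33 of 106 cells, and ILC2-gated cells 171 CPM (133 to 216), with a UMI in 46 of 220 cells. These values overlapped, and NK cells followed at 97.7 CPM (76.7 to 123). Other T cells at 40.2 and effector or memory CD8 T cells at 36.1 CPM overlapped each other. The ILC2 gate did not require the absence of T cell markers, and 143 of its 220 cells had a UMI of at least 1 of them. Without these cells Klrg1 was at 153 CPM (96.0 to 232), an interval that overlapped that of the NK cells. The summed B cell genes of this gate (12623 CPM) came mainly from 1 cell with 4828 of its 4843 Igkc UMIs. No UMI of Klrg1 was counted in gamma-delta T cells or naive-like CD8 T cells, a limit of 8.001 and 3.94 CPM.

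Effector or memory CD8 T cells share the granule genes of NK cells, so the receptors were next compared between these types. All 10 genes had at least 10 UMIs over both types and were at least 2-fold higher in NK cells, a ratio that 19.0% of the 7243 genes with that many UMIs reached. Only Klrd1 and Klrk1, with 47 and 41 UMIs, also had that many in the CD8 T cells alone. The others passed this filter only with their NK UMIs, which favors a call on the NK side. The count of genes is therefore a description and not a test. The median log2 ratio was 3.25 over the 10 genes and 0.19 over all 7243, each computed with 10 CPM added to both levels. For the sum of the 10 genes the log2 ratio was 3.32 (3.04 to 3.61), and 2.47 per cell instead of per UMI, since the CD8 T cells were deeper (median of 1925 against 1162.5 UMIs). Per cell 9 of the 10 genes were at least 2-fold higher, and Klrg1 was not (log2 ratio 0.59). By their values the genes fell into 2 sets, though the intervals of Klra8, Klrb1c and Klrc1 reached across both. Ncr1 (log2 ratio 7.08, interval 5.22 to 10.1), Klre1 (5.78, interval 4.22 to 8.06), Klra7 (5.33, interval 3.46 to 8.39) and Klra4 (5.24, interval 3.68 to 7.53) rested on 2 or 3 UMIs in the CD8 T cells. Klra8 and Klrb1c had none there. A limit of 3 UMIs would make them 7.12-fold and 7.01-fold higher in NK cells, and their exact log2 intervals began at 2.49 and 2.47. By comparison, Klrd1 (2.24, interval 1.81 to 2.70), Klrc1 (2.20, interval 0.56 to 4.54, from 3 UMIs in the CD8 T cells), Klrk1 (2.02, interval 1.56 to 2.52) and Klrg1 (1.43, interval 0.43 to 2.62) were closer, and the intervals of Klrc1 and Klrg1 reached below a 2-fold difference. Summed myeloid genes were at 768 CPM in the NK and at 2007 CPM in the CD8 T cells, and their part in these ratios was not tested.

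**Figure D2:**
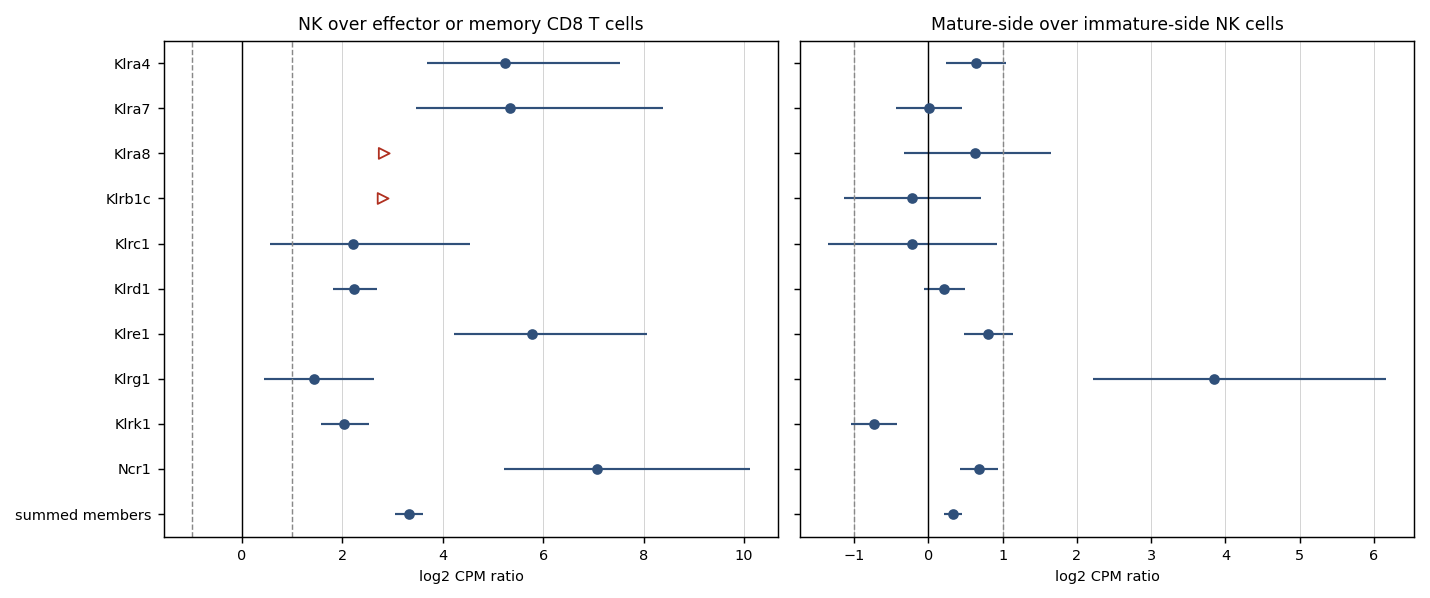
The log2 ratio of the CPM of each gene is plotted with exact 95% intervals. NK over effector or memory CD8 T cells is on the left and mature-side over immature-side NK cells on the right. Dashed lines mark a 2-fold difference, and open triangles the ratio that 3 UMIs would give where the CD8 T cells had none. All 10 genes lie at 1.43 or more on the left, while Klrg1 (3.84) stands apart on the right and Klrk1 (-0.74) lies on the other side of 0.

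Within the NK cells, 224 cells had more markers of a mature-side list (Itgam, S1pr5, Zeb2, Cx3cr1, Cma1, Prdm1) and 176 had more of an immature-side list (Cd27, Ltb, Emb, Ctla2a, Cxcr3, Tcf7), and 184 were tied. Klrg1 was at 169 CPM (50 UMIs) in mature-side cells and at 11.8 CPM (3 UMIs) in immature-side cells, a log2 ratio of 3.84 (2.21 to 6.17). Klrg1 was also the only gene of the 10 at least 2-fold higher in mature-side cells, against 11.5% of 5599 genes with at least 10 UMIs. None of the 10 was 2-fold higher in immature-side cells, against 6.45% of those genes. Smaller differences whose intervals did not include 0 were seen for Klre1 (0.81, interval 0.49 to 1.13), Ncr1 (0.68, interval 0.43 to 0.94) and Klra4 (0.64, interval 0.24 to 1.04), all higher in mature-side cells. Klrk1 went the other way, from 846 CPM in immature-side to 508 CPM in mature-side cells (-0.74, interval -1.05 to -0.43). The intervals of Klra7 (0.01), Klra8 (0.63), Klrb1c (-0.22), Klrc1 (-0.22) and Klrd1 (0.22) included 0; that of Klra7, from -0.43 to 0.45, lay within a 2-fold difference either way. Summed myeloid genes were at 1554 CPM in mature-side and 232 CPM in immature-side cells. Without the 17 and 7 cells that had UMIs of at least 2 of these 5 genes, the ratio of Klrg1 was 3.91 (2.28 to 6.24).

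Detection of each receptor cell by cell was then compared at equal depth, by thinning each cell to 1000 UMIs and leaving out shallower ones, which kept 389 of the 584 NK cells. Ncr1 was detected in 60.9% (55.9 to 65.8), Klrd1 in 57.3%, Klrk1 in 43.7%, Klre1 in 43.2%, Klra4 in 32.4% and Klra7 in 20.1% of NK cells. The other 4 genes were found in few of them: Klrg1 in 9.51%, Klrb1c in 9.25%, Klra8 in 5.40% and Klrc1 in 4.37%. In cells that should lack these receptors, the 1765 B cells at that depth (median of 1386 UMIs before thinning), the share was at most 0.170% for any of the 10 genes. The UMIs of a gene would follow a Poisson distribution if all NK cells held it at the same mean. For Klra7 this would give 27.5% of cells with a UMI, above the measured 20.1% (16.2 to 24.4), and the variance of its UMIs over cells was 1.92 times the mean, with up to 6 UMIs in a thinned and 11 in an unthinned cell. Klra7 UMIs were thus held by fewer cells, at 1.60 UMIs per positive cell on average, and whether these cells came from all mice cannot be told apart. Klre1 (43.2% measured against 49.0%) and Ncr1 (60.9% against 66.5%) also lay below, with the Poisson value just outside the interval, and the variance was 1.25 and 1.37 times the mean. For Klra4 (32.4% against 36.6%), Klra8 (5.40% against 6.22%) and the other 5 genes the Poisson value was within the interval. The variance of each of these was still above the mean, from 1.06 times for Klrb1c to 1.32 times for Klrk1. With 1.25 for Klra4, 1.26 for Klra8 and 1.29 for Klrg1, this measure did not set them apart from Klre1.

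**Figure D3:**
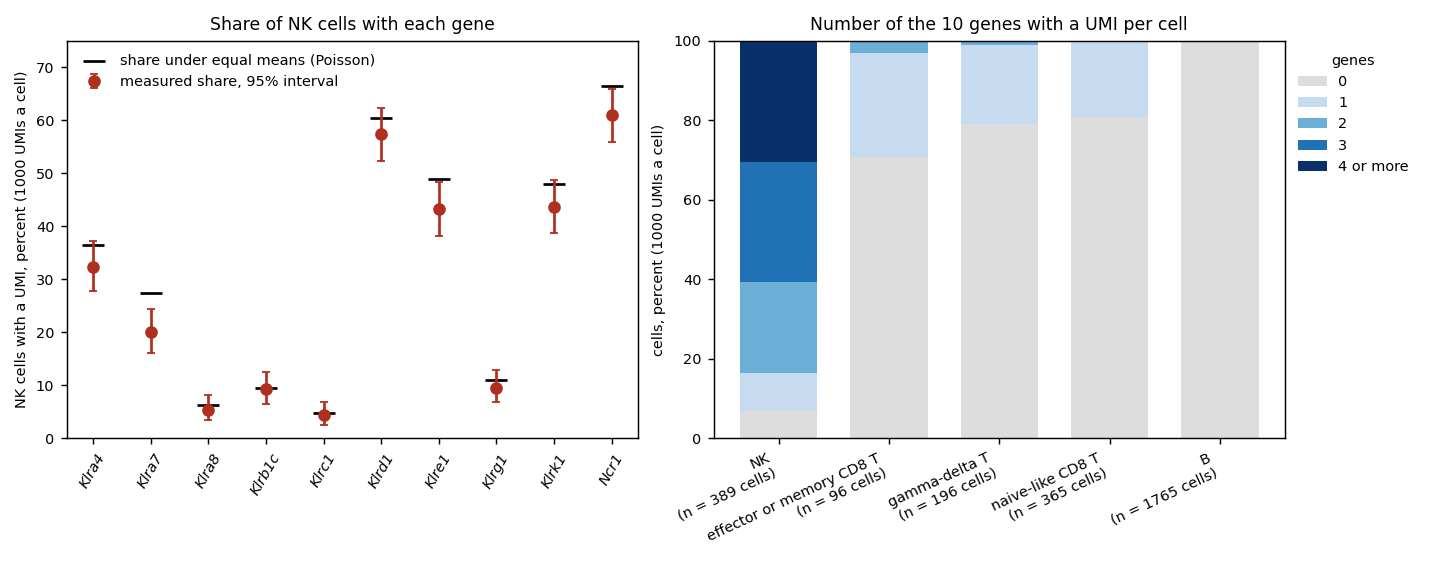
Left, the share of 389 NK cells with a UMI of each gene after thinning to 1000 UMIs a cell (red, with exact 95% intervals) beside the share that a Poisson distribution with the same mean would give (black bars); Klra7 lies lowest relative to its bar, at 20.1% against 27.5%. Right, stacked bars give the share of cells with UMIs of 0, 1, 2, 3 or at least 4 of the 10 genes in 5 cell types at the same depth. Most NK cells hold several of the genes, and most T cells 0 or 1.

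At this depth 93.1% (90.1 to 95.4) of the NK cells had a UMI of at least 1 of the 10 genes, 83.5% of at least 2 and 30.6% of at least 4, with 7 as the most. Without thinning these shares were 96.7%, 88.5% and 45.5%. In T cells detection was mostly of a single gene. Of 96 effector or memory CD8 T cells, 29.2% (20.3 to 39.3) had at least 1 gene and 3.13% at least 2 (14.0% without thinning), and of 196 gamma-delta T cells 20.9% and 1.02%. Of 365 naive-like CD8 T cells, 19.2% had 1 gene, mostly Klrd1 (65 of 70 cells with any), and 0 had 2, with an exact interval up to 1.01% at this depth. Without thinning 4 of 370 (1.08%) had 2. The share with at least 1 gene was 0.340% of 1765 B cells and 0.178% of 1685 alveolar macrophages. Without thinning it was 48.6% of effector or memory CD8 T cells and 0.573% of B cells.

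The Ly49 genes were compared pair by pair in the same 389 NK cells. At least 1 of the 3 was detected in 46.5% (41.5 to 51.6) of the cells, at least 2 in 39 cells and all 3 in 5 cells. Klra4 was found in 9 of the 21 cells with Klra8, or 42.9% (21.8 to 66.0), and in 117 of the 368 cells without it, or 31.8% (27.1 to 36.8). Klra7 was found in 25.4% (18.1 to 33.9) of cells with Klra4 and 17.5% (13.1 to 22.6) of cells without, and Klra8 in 10.3% (4.53 to 19.2) of cells with Klra7 and 4.18% (2.24 to 7.04) of cells without. All 3 pairs were found together in more cells than the product of their shares would give (32 against 25.3 cells for Klra4 with Klra7, 9 against 6.80 for Klra4 with Klra8, and 8 against 4.21 for Klra7 with Klra8). In each pair the intervals with and without the partner overlapped at this depth. In the 176 immature-side cells without thinning, Klra7 was found in 9 of 14 cells with Klra8, or 64.3% (35.1 to 87.2), and in 34 of 162 cells without it (14.99% to 28.1%), which did not overlap. After thinning the shares there were 37.5% (8.52 to 75.5) and 15.4% (9.66 to 22.8), which did.

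Over all 45 pairs of the 10 genes, 32 were found together in more cells than the product of the shares and 13 in fewer. Only Klra4 with Ncr1 had separate intervals: Ncr1 was in 71.4% (62.7 to 79.1) of cells with Klra4 and 55.9% (49.7 to 62.0) of cells without. The separation was lost without thinning, where the shares were 72.2% and 69.5% and the intervals overlapped. Without thinning 2 other pairs, Klra7 with Klre1 and Klra8 with Klre1, had separate intervals, and no pair had them in both settings.

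**Figure D4:**
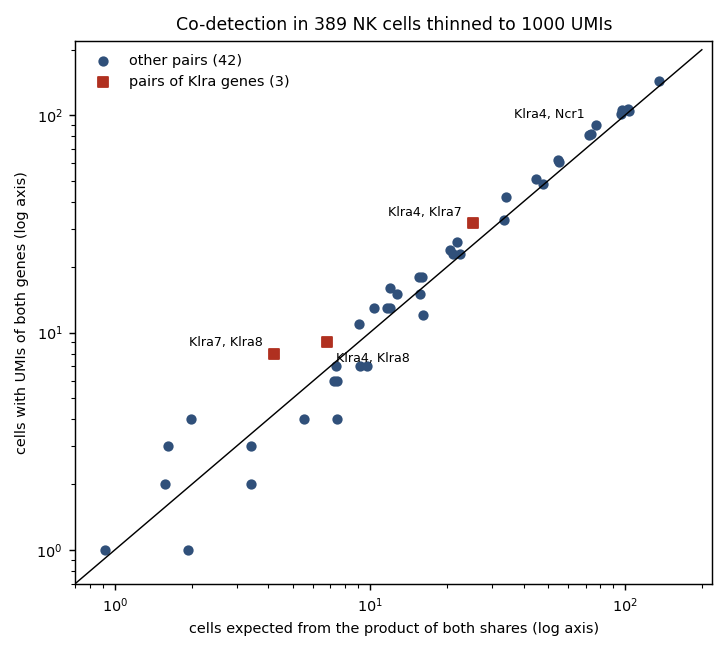
For each of the 45 gene pairs, the number of the 389 thinned NK cells with UMIs of both genes is plotted against the number expected from the product of the shares (both log axes), with a line at equality. The 3 pairs of Klra genes (red squares) lie above the line, as do 32 of the 45 pairs in all.

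Of 10 further Klra genes listed, 8 had a row in the table. Klra2 and Klra6 had under 10 UMIs. The other 6 had a ratio of at least 2 between NK and effector or memory CD8 T cells. For Klra17, with 11 and 0 UMIs, a limit of 3 UMIs would give a ratio of only 1.21. The most abundant of these in UMIs was Klra1 (Ly49A, an inhibitory receptor) with 182 UMIs at 240 CPM and none in the CD8 T cells, followed by Klra9 at 91.1 CPM. Klra1 was 19.9-fold higher against a limit of 3 UMIs, and its exact log2 interval began at 4.01. The intervals of the ratio of Klra3, Klra10 and Klra17 included 0. Of 9 other killer-lectin genes 8 were measured and 5 were at least 2-fold higher in NK cells, among them Klrb1a (203 CPM, log2 ratio 4.66, interval 2.78 to 7.72), Klrb1f (162 CPM, 13.5-fold against a limit of 3 UMIs, exact log2 interval from 3.43) and Klrc2 (104 CPM, log2 ratio 1.70, interval 0.65 to 2.96). The other 3, Klrb1, Klri1 and Klri2, had under 10 UMIs. The interval of Klrb1b, with 11 UMIs in NK and 1 in CD8 T cells, included 0. Of all 7243 genes with at least 10 UMIs over both types, 19.0% were at least 2-fold higher in NK cells. Genes that reach 10 UMIs through NK cells alone could be called only on the NK side.

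Among 10 adaptor and proximal signaling genes, 5 were at least 2-fold higher in NK cells, against 19.0% of the 7243 genes. Tyrobp (DAP12, the adaptor of activating Ly49 receptors) was at 2975 against 301 CPM (log2 ratio 3.30, interval 2.97 to 3.66), and Fcer1g, an adaptor of NKp46, at 2384 against 285 CPM (3.06). Syk, Ptpn6 and Ptpn11 were the other three. Hcst (DAP10, the adaptor of NKG2D) was at 979 and 1012 CPM (-0.05, interval -0.25 to 0.17), and Zap70, Cd247, Vav1 and Lcp2 also lay within 2-fold. Of 9 measured receptors of other families, Cd244 was higher in NK cells (104 CPM, log2 ratio 4.70, interval 2.18 to 10.02, from 1 UMI in the CD8 T cells) and Cd226, Cd96, Crtam and Slamf6 were at least 2-fold lower, against 7.59% of the 7243 genes, Slamf6 by the most (18.5 against 108 CPM, -2.55, interval -3.60 to -1.57), while the interval of Crtam included 0. Of 13 ligand genes, 8 had at least 10 UMIs and lay within 2-fold in both directions, among them the MHC class I genes H2-K1 (-0.03) and H2-D1 (0.12).

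Over the 21 cell types, the genes whose log2(CPM + 10) followed the sum of the 10 receptors most closely, out of 6297 ranked, were Ctsw (Pearson r 0.84), B230307C23Rik (0.82), Tbx21 (0.82), Cst7 (0.80), AW112010 (0.79), Prr7, Fasl, Xcl1, Dok2 and Osbpl3 (0.75). Ctsw encodes a protease of cytotoxic cells and Tbx21 the T-box factor T-bet. Not all of these genes had their highest value in NK cells. B230307C23Rik was at 52.8 CPM there and 61.3 in gamma-delta T cells, and Prr7 at 39.6 and 66.7. Osbpl3 was at 70.0 CPM in NK and 74.1 in ILC2-gated cells. Among the receptors, Klrk1 followed the sum of the other 9 most closely (r 0.81) and Klrg1 least (0.35). Gene by gene the order differed: r was 0.99 for Klra7 with Klre1, while Klrk1 reached at most 0.88, with Klrc1. These values describe 21 types of 1 pooled sample that differ in depth and are not independent.

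Some of the genes share sequence that a 91-base read near the end of a transcript could not tell apart. In the last 500 bases of their transcripts, 21.5% of 91-base windows of Klrc1 were also found in Klrc2, 11.3% of those of Klrb1c in Gm44511 or Klrb1a, and 6.27% of those of Klra7 in Klra13-ps. No such window was shared for the other 7 genes, Klra4 and Klra8 among them. The reference was that of C57BL/6J, and the share of reads from alleles of strain 129 was not analysed here. Klrb1c also overlaps Gm44511 on the same strand, so its level is uncertain.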

How the data were processed

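Cell Ranger 3.0.2, per the file headers, was used by the authors to align 3′ reads to mm10, and the values they deposited are whole UMI counts. Columns of other samples numbered 0. Cells with at least 200 genes and at or below the 98th percentile of genes (2713) and of the mitochondrial share (13.4%) were kept. The study states percentile cut-offs without their values. Its removal of non-epithelial cells positive for tdTomato was not repeated. Doublets were kept; scanpy 1.11.5 (Scrublet, expected rate 6%) called 210 of 20299 cells, or 1.03%, and 3 NK cells, and their removal was an alternative.

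A cell took the lineage with the most of its 6 markers detected (at least 2, no tie); no gate used any of the 10 genes. Names are rebuilt here and can differ from those of the study. The genes, lists and gates were chosen with earlier results of these data known. Counts were summed per type. Poisson intervals (CPM), Clopper-Pearson intervals (shares) and conditional binomial intervals (ratios) were computed at 95% with scipy 1.17.1; where none was counted, 3 UMIs set the limit. On simulated data for NK over effector or memory CD8 T cells (7243 genes, 200 changed 4-fold), 96.8% of intervals covered the ratio set and all changes were recovered (100%). The counts were Poisson draws, as the intervals assume, and changed genes had at least 10 expected UMIs per type before the change. The simulation thus checks the computation only. It does not cover ratios that rest on 3 UMIs or fewer, or spread among cells beyond Poisson.

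Genes named are the 10 receptors, the pathway lists, and the 10 genes outside the gate lists, at 50 CPM or more in a type, with the highest Pearson r to the summed receptors. Positions come from GENCODE vM21 and promoters from RefSeq (GRCm38.p6).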

Additional observations from a re-analysis of the deposited data

How the results depend on the processing

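No paired analysis was possible because no cell could be assigned to a mouse, and no library could be left out for the same reason. Results were recomputed with at least 500 genes a cell, with 95th percentile cut-offs or none, at least 3 markers for a lineage, exclusive gates, an NK gate without Nkg7 and Il2rb, removal of Scrublet doublets, thinning to 500 or 2000 UMIs or none, and 1.5-fold or 4-fold limits; levels per cell and the removal of cells with myeloid, T cell or ILC2-gate T markers were added after the data were seen. The results recomputed were the sum in NK cells, its ratio to effector or memory CD8 T cells, the count of genes 2-fold higher, the Klrg1 ratio within NK cells, Klra4 among cells with and without Klra8, and the NK level of each gene; the other ratios and pairs were not recomputed with other gates. The 2 ratios kept their direction. The NK gate without Nkg7 and Il2rb raised the summed level in NK cells to 4787 CPM and Klra4 among cells without Klra8 to 38.3%. At least 3 markers raised the log2 ratio of NK over effector or memory CD8 T cells to 3.69, and levels per cell lowered it to 2.47. Klra4 among cells with and without Klra8 was 21.7% and 21.03% after thinning to 500 UMIs, and 38.6% among those without Klra8 when not thinned. All 10 genes stayed 2-fold higher in NK cells under each alternative of gate and cell filter, and 9 were 4-fold higher, all but Klrg1. Per cell, 9 were 2-fold and 6 were 4-fold higher. The ratio of Klrg1 between mature-side and immature-side cells ran from 3.47 to 4.42. Of the 10 genes most like the sum, 5 were shared with the 10 at a pseudocount of 1 CPM and 5 at 50 CPM. Pairs of genes rest on few cells: 21 thinned cells had Klra8.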
